A study of Mus musculus with 1600 samples.

Results

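Lyz2, Apoe, Axl, Ms4a7, Csf1r, Adgre1, Cx3cr1, Mrc1, Trem2 and Cybb are widely used as identity genes of macrophages. These 10 genes were found by symbol among the 45792 gene identifiers of the deposited counts, and all 10 were present. They were chosen by their measured levels in these same wells, across cell types and between conditions. Those levels are therefore a description, and the tests run over whole tables are no independent support for them.

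The wells held glomerular cells of 10-week-old Nos3-/- C57BL/6 mice, which lack endothelial nitric oxide synthase in every group. In the diabetes group, streptozotocin, a toxin of insulin-producing cells, was injected at 50 µg per g body weight per day on 5 days from week 8, and the control group received citrate vehicle. Each of 2 experiments pooled the glomeruli of 3 mice per condition and loaded 1 diabetes and 1 control pool on a Fluidigm C1 chip, in which every captured well is imaged before its RNA is copied. This gave 4 pools of 400 wells each, named diabetes replicate 1, diabetes replicate 2, control replicate 1 and control replicate 2, where the replicate number is the experiment. No group with intact Nos3 was included, and a pool, not a mouse or a cell, was the unit compared.

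Of 1600 wells, 833 were imaged with 1 cell, 588 empty and 98 with 2 cells, and no well name was shared by the 2 experiments' tables. The 639 single-cell wells with at least 500 genes and at most 30% mitochondrial reads were kept, 128 and 188 in diabetes replicates 1 and 2, and 120 and 203 in control replicates 1 and 2. Median reads per kept well were 43577 and 176715 in diabetes replicates 1 and 2, and 32222 and 219072 in control replicates 1 and 2, so experiment 1 was the shallower. Clusters made without the 10 genes were named from marker genes as immune-like (79 wells), endothelial-like, mesangial-like, podocyte-like or smooth muscle or renin cell-like. The conditions also differed in sex-linked genes, although the design text calls the mice sex-matched. Xist, transcribed from the inactive X, had 1.42 and 1.40 CPM (counts scaled to a common library total) in the kept wells of diabetes replicates 1 and 2, against 356 and 442 CPM in those of control replicates 1 and 2. The sum of 4 Y-linked genes was 154 and 160 CPM in the diabetes pools, against 0.279 and 0.605 CPM in the control pools. Diabetes and this difference cannot be told apart in any comparison below. Nos3 itself had 96.5 and 83.8 CPM in the endothelial-like wells of diabetes replicates 1 and 2, and 90.3 and 97.9 CPM in those of control replicates 1 and 2, and such whole-gene counts do not check the deletion.

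Macrophages of the kidney depend on the receptor Csf1r, whose ligands are Csf1 and Il34, for survival. Their identity genes cover bacterial killing (Lyz2, a lysozyme, and Cybb, the catalytic subunit of the phagocyte NADPH oxidase) and lipid transport and sensing (Apoe, a lipoprotein component, and Trem2, a lipid-binding receptor that signals through Tyrobp). They also cover uptake of dying cells (Axl, a receptor tyrosine kinase of the TAM family), uptake of mannosylated glycoproteins (Mrc1), response to fractalkine (Cx3cr1) and surface proteins used for recognition (Adgre1, which encodes F4/80, and Ms4a7). Apoe, Axl and Mrc1 are also made by other cell types of the body.

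Lyz2 (chromosome 10, 117277331 to 117282321, minus strand, GRCm38) lies beside a near-identical copy, Lyz1 (chromosome 10, 117287797 to 117292868, minus strand). The coding sequences of both copies are 444 bases long and share 422 of them. The deposited counts hold fractions, so some reads were divided among genes, and Lyz2 reads cannot be fully separated from Lyz1 reads. The windows from 120 to 51 bases before the RefSeq starts are shown because they also differ at only 9 of 70 bases, which are the capitals (GRCm38.p6, chr10:117282323-117282392 for Lyz2 and chr10:117292919-117292988 for Lyz1, both minus strand).
Lyz2: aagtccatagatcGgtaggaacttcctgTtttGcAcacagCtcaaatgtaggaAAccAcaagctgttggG
Lyz1: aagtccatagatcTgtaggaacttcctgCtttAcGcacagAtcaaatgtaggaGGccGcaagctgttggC

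RefSeq promoters, windows of 300 bases around a start, were matched for 8 of the 10 genes (11 promoters, GRCm38.p6), with none for Csf1r and Adgre1. The motif GAGGAA, of the type bound by the macrophage factor PU.1, was present on either strand in 7 of 11 of these promoters (63.6%), against 28.3% of all 32851 promoters. Those 7 belonged to 6 genes, Apoe, Axl, Cybb, Mrc1, Ms4a7 and Trem2. The longer form GAGGAAG, which contains GAGGAA, was in 3 promoters (27.3%, against 13.6% of all), and the AP-1 type motif TGANTCA also in 3 (27.3%, against 7.81% of all). The MAF type motif TGCTGAC was in 0 of the 11, against 4.67% of all. A match is a run of letters and not a bound site. The 2 windows below are shown because Trem2 and Mrc1 differ in the class that holds them, described further on, while both carry GAGGAA close to the start. They are the 120 bases before the RefSeq start on the plus strand (chr17:48346281-48346400 for Trem2, chr2:14229294-14229413 for Mrc1), and the capitals mark GAGGAA read on the opposite strand and, near the end of the Trem2 window, TGANTCA.
Trem2: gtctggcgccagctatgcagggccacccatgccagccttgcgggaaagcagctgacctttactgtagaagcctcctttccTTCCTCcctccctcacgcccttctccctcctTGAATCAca
Mrc1: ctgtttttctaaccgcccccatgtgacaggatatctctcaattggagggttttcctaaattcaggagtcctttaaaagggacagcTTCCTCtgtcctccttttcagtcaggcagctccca

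The other members lie on chromosome 7 (Apoe, 19696109 to 19699188, and Axl, 25757273 to 25788705, both minus strand), chromosome 9 (Cx3cr1, 119901616 to 120069879, minus strand), chromosome 17 (Adgre1, 57358691 to 57483527, plus strand), chromosome 19 (Ms4a7, 11321039 to 11336146, minus strand) and the X chromosome (Cybb, 9435252 to 9487771, minus strand). Trem2 spans 48346401 to 48354147 on chromosome 17 and Mrc1 spans 14229392 to 14332057 on chromosome 2, both on the plus strand. Csf1r lies on chromosome 18. Counts were made over whole genes, and all levels below are CPM of a sum of wells, which are compared between classes and pools and not between genes.

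The 10 genes fell into 2 patterns across the cell classes. In Lyz2, Csf1r, Cx3cr1 and Cybb, each immune-like sum exceeded every endothelial-like, mesangial-like and podocyte-like sum of at least 5 wells. Lyz2 ranged over 771 to 8346 CPM in immune-like sums, against at most 149 CPM in any of these other sums, although the 3 smooth muscle or renin cell-like wells of diabetes replicate 1 had 2156 CPM. Csf1r ranged over 229 to 1474 CPM, against at most 94.4 CPM in the same 3 other classes. Cybb ranged over 661 to 1351 CPM, against at most 37.8 CPM in those 3 classes, although the 8 wells of unnamed clusters in diabetes replicate 2 had 82.0 CPM. Cx3cr1 ranged over 69.8 to 544 CPM, against at most 1.75 CPM in those 3 classes and 4.73 CPM in unnamed wells. Ms4a7, Adgre1 and Trem2 were also highest in immune-like wells but had 0 counts in some immune-like sums, and in the other 3 classes Ms4a7 did not exceed 21.5 CPM, Adgre1 1.75 CPM or Trem2 0.0677 CPM.

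Apoe, Axl and Mrc1 followed the other pattern, with levels in mesangial-like wells that overlapped those of immune-like wells. Mesangial cells are the contractile pericyte-like cells of the glomerular tuft. Axl ranged over 714 to 1350 CPM in mesangial-like and 262 to 429 CPM in podocyte-like sums, and over 30.2 to 1496 CPM in immune-like sums. Endothelial-like sums of Axl reached 49.0 CPM, and the 5 smooth muscle or renin cell-like wells of control replicate 1 had 207 CPM. In diabetes replicate 2 the 3 such wells held 10.2% of the Axl counts of kept wells. All 10 genes summed to 2806 CPM there, most of it Axl. Apoe ranged over 215 to 3001 CPM in mesangial-like sums and 20.8 to 4545 CPM in immune-like sums. Its endothelial-like sums (17.8 to 245 CPM) and podocyte-like sums (5.71 to 266 CPM) also overlapped the immune-like range. Mrc1 ranged over 11.04 to 321 CPM in mesangial-like sums and 4.16 to 989 CPM in immune-like sums. It reached 7.15 CPM in endothelial-like and 13.9 CPM in podocyte-like sums, above the lowest immune-like value. The mesangial-like and immune-like ranges overlapped in all 3 genes, while for Axl every mesangial-like sum was above every podocyte-like sum of at least 5 wells.

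The share of each gene's counts by class shows the same division. Immune-like wells held 96.6% and 86.7% of the Lyz2 counts of kept wells in diabetes replicates 1 and 2, and 96.8% and 87.9% in control replicates 1 and 2. They held 79.1% and 18.1% of the Axl counts in diabetes replicates 1 and 2, but only 2.41% and 0.114% in control replicates 1 and 2. Mesangial-like wells held 12.6% and 53.9% of the Axl counts in diabetes replicates 1 and 2, and 57.6% and 78.6% in control replicates 1 and 2. For Apoe, immune-like wells held 91.7% and 31.9% in diabetes replicates 1 and 2, and 26.2% and 0.222% in control replicates 1 and 2. The division of Axl and Apoe counts between immune-like and mesangial-like wells thus differed by pool. These shares also depend on how many wells each class had, so they do not measure the level per cell. Immune-like wells numbered 28 and 41 in diabetes replicates 1 and 2, and 5 in each control pool. Mesangial-like wells numbered 5 and 20 in the diabetes replicates, and 29 and 65 in the control replicates.

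**Figure D1:**
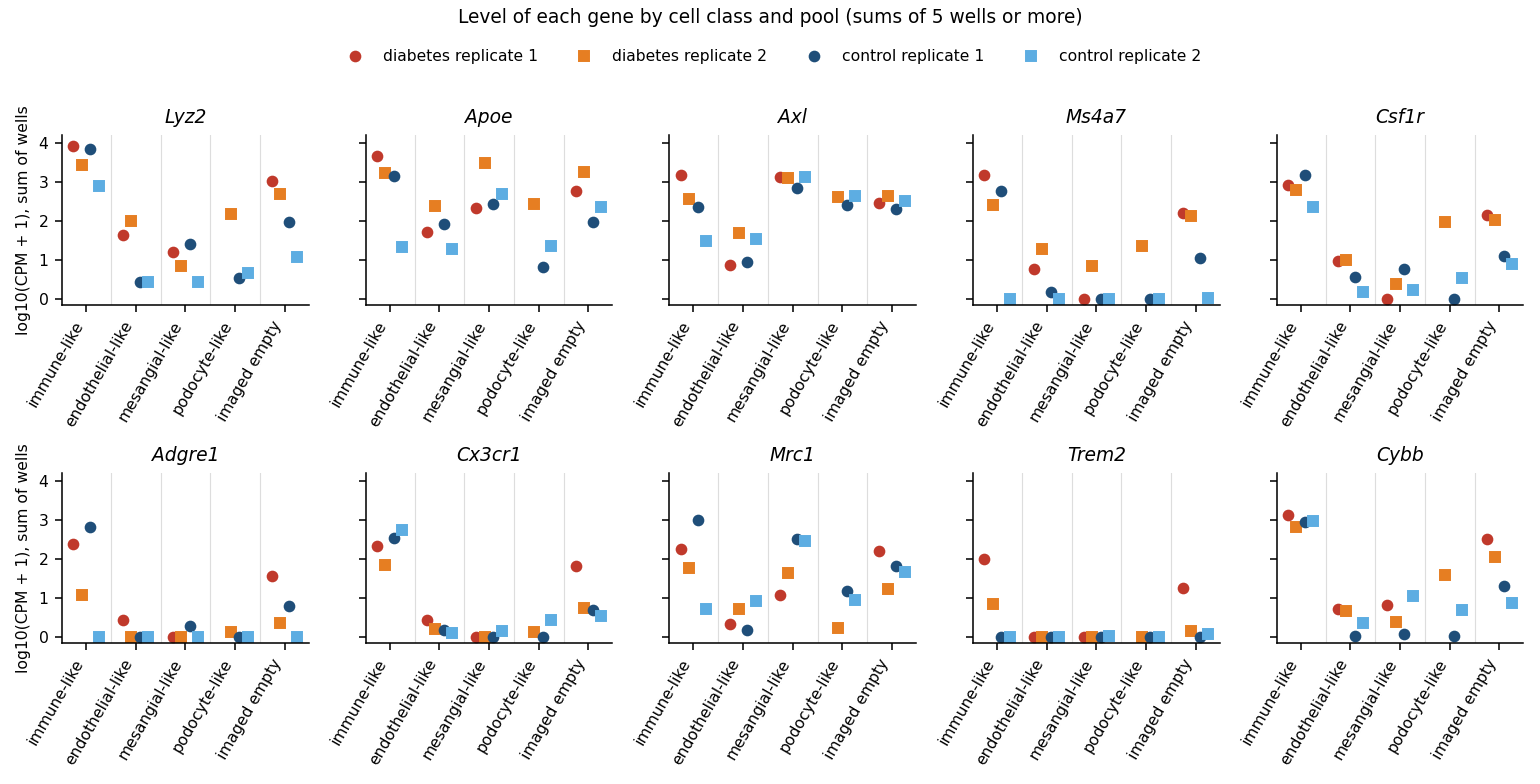
Level of each of the 10 genes as log10(CPM + 1) on the vertical axis, in sums of at least 5 wells of 4 cell classes and in wells imaged empty, with 1 point per pool (red and orange, diabetes; blue, control). Lyz2, Csf1r, Cx3cr1 and Cybb stand highest in immune-like wells in every pool, while Axl, Apoe and Mrc1 reach like levels in mesangial-like wells, and the empty wells of both diabetes pools hold all 10 genes.

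The immune-like class had 28 and 41 wells in diabetes replicates 1 and 2, and 5 wells in each of control replicates 1 and 2, so each control value rests on few cells. Of 14 immune markers, which did not include the 10 genes, all 14 were above 0 in diabetes replicates 1 and 2 and control replicate 1, and 11 in control replicate 2, where C1qa, C1qb and C1qc were at 0. Their summed level was 56090 and 8718 CPM in diabetes replicates 1 and 2, and 49424 and 14034 CPM in control replicates 1 and 2. Of 8 markers of T cells, Cd3e, Cd3d, Cd3g and Cd8a were at 0 in all 4. Il7r, Cd4, Lck and Trbc2 had the largest mean CPM of that list. Only Cd4 of the 8 passed the filter on low counts used below, and it was not called between conditions. Diabetes replicate 2 stood apart in other blood cell markers. Its 7 B or plasma cell markers summed to 8447 CPM, against 572 CPM in diabetes replicate 1 and 742 and 758 CPM in control replicates 1 and 2. Its 6 neutrophil markers summed to 5096 CPM, against 9.76 CPM in diabetes replicate 1 and 86.4 and 0.104 CPM in the controls. Its 4 haemoglobin genes summed to 20647 CPM, against 2.53 CPM in diabetes replicate 1 and 0 in the controls. The part of these cells in the values below was not tested.

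Among the killing genes, Lyz2 had 8346 and 2696 CPM in the immune-like wells of diabetes replicates 1 and 2, and 6947 and 771 CPM in those of control replicates 1 and 2. The conditions overlapped, and both values of experiment 2 were below both of experiment 1. Lyz1, its copy, had 309 and 121 CPM in diabetes replicates 1 and 2, and 234 and 28.4 CPM in control replicates 1 and 2, in the same order of pools. Cybb had 1351 and 661 CPM in diabetes replicates 1 and 2, and 876 and 920 CPM in control replicates 1 and 2. It varied least of the 10 between pools and also overlapped.

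Among the lipid genes, Apoe had 4545 and 1707 CPM in diabetes replicates 1 and 2, and 1436 and 20.8 CPM in control replicates 1 and 2. Both diabetes values exceeded both control values, although 1 well supplied all Apoe counts of control replicate 1 and 1 well supplied 71.7% of those of diabetes replicate 2. Trem2 had 97.0 and 5.86 CPM in diabetes replicates 1 and 2, and 0 counts in control replicates 1 and 2. A count of 0 there allows up to 21.4 and 3.12 CPM in control replicates 1 and 2 (3 counts, counting error only), so diabetes replicate 2, with 99.5% of its Trem2 counts in 1 well, was within what the first control allows.

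Among the receptors, Csf1r had 837 and 623 CPM in diabetes replicates 1 and 2, and 1474 and 229 CPM in control replicates 1 and 2. Its diabetes values lay between the control values. Cx3cr1 had 210 and 69.8 CPM in diabetes replicates 1 and 2, and 335 and 544 CPM in control replicates 1 and 2, so that both diabetes values were below both control values. Axl had 1496 and 364 CPM in diabetes replicates 1 and 2, and 228 and 30.2 CPM in control replicates 1 and 2. Both diabetes values of Axl were higher, with 80.0% of the counts of diabetes replicate 2 in 1 well. Mrc1 had 182 and 56.8 CPM in diabetes replicates 1 and 2, and 989 and 4.16 CPM in control replicates 1 and 2. The highest Mrc1 value, in control replicate 1, came from 1 well.

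Among the surface markers, Ms4a7 had 1546 and 255 CPM in diabetes replicates 1 and 2, and 584 and 0 CPM in control replicates 1 and 2. A single well supplied 98.8% of the Ms4a7 counts of control replicate 1. Adgre1 had 245 and 10.7 CPM in diabetes replicates 1 and 2, and 655 and 0 CPM in control replicates 1 and 2. For both genes both values of experiment 1 exceeded both values of experiment 2. Across the 10 genes, 3 (Apoe, Axl and Trem2) had both diabetes values above both control values, where 35.8% of all genes with a mean of 1 CPM or more did. One gene (Cx3cr1) had both below, where 5.3% of all genes did. The 3 of 10 is near the share of all genes in these wells.

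Genes were tested between diabetes and control on these 4 sums with edgeR's quasi-likelihood test, the experiment as a block and Benjamini-Hochberg adjustment over all genes tested at 0.05. Values given as log2 are fold changes of diabetes over control. The block leaves 1 residual degree of freedom, and the spread is borrowed across genes. Fits between conditions with 1 pool left out had no block, so they also compared pools across experiments. In immune-like wells 8303 genes were tested and 4 were called (0.0482%), 3 higher (0.0361%) and 1 lower (0.012%). Of the 10 genes, 9 passed the filter on low counts and only Apoe was called, at log2 4.10 (SE 0.90, adjusted p = 0.0116). Apoe was not called without control replicate 2 (log2 1.59, adjusted p = 0.413), without diabetes replicate 1 (log2 1.95), without diabetes replicate 2 (log2 2.84), with no replicate block (log2 2.46, adjusted p = 0.442), with RLE scaling or by DESeq2. Ms4a7 stood at log2 4.70 (SE 1.46), Axl at 3.28 (SE 1.10) and Lyz2 at 1.16 (SE 0.57), all with an adjusted p of 0.989. These 4 had an unadjusted p under 0.05, as did 2.73% of all genes. The median over the 9 was 1.16, against 1.02 over all genes tested, and 8 of the 9 were positive, as were 70.5% of all genes. The other 5 genes tested ran from a log2 of -1.70 for Cx3cr1 to 1.29 for Adgre1.

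Detection per well was compared after thinning each well to 10000 reads, which left 24 and 41 immune-like wells in diabetes replicates 1 and 2, and 4 and 5 in control replicates 1 and 2. Cybb was found in 24 of 24 and 26 of 41 wells of diabetes replicates 1 and 2, and in 3 of 4 and 4 of 5 wells of control replicates 1 and 2. Lyz2 was found in 22 and 27 wells of diabetes replicates 1 and 2, and in 4 and 2 of control replicates 1 and 2. The median share of mitochondrial reads in immune-like wells was 8.36% and 18.7% in diabetes replicates 1 and 2, and 9.92% and 13.7% in control replicates 1 and 2. Its part in detection was not tested. Axl and Ms4a7 set the diabetes pools apart from each other. Axl was found in 21 of 24 wells of diabetes replicate 1 and 9 of 41 of diabetes replicate 2, and in 1 of 4 and 2 of 5 wells of the controls. Ms4a7 was found in 21 of 24 wells of diabetes replicate 1 but in 4 of 41 of diabetes replicate 2, and in 2 of 4 and 0 of 5 wells of the controls. In diabetes replicate 1, 18 of 24 wells held both Axl and Ms4a7, while 4 of 41 did in diabetes replicate 2. Trem2 was found in 7 of 24 and 1 of 41 wells of the diabetes pools and in 0 of 9 control wells, and all 8 of these wells also held Apoe.

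**Figure D2:**
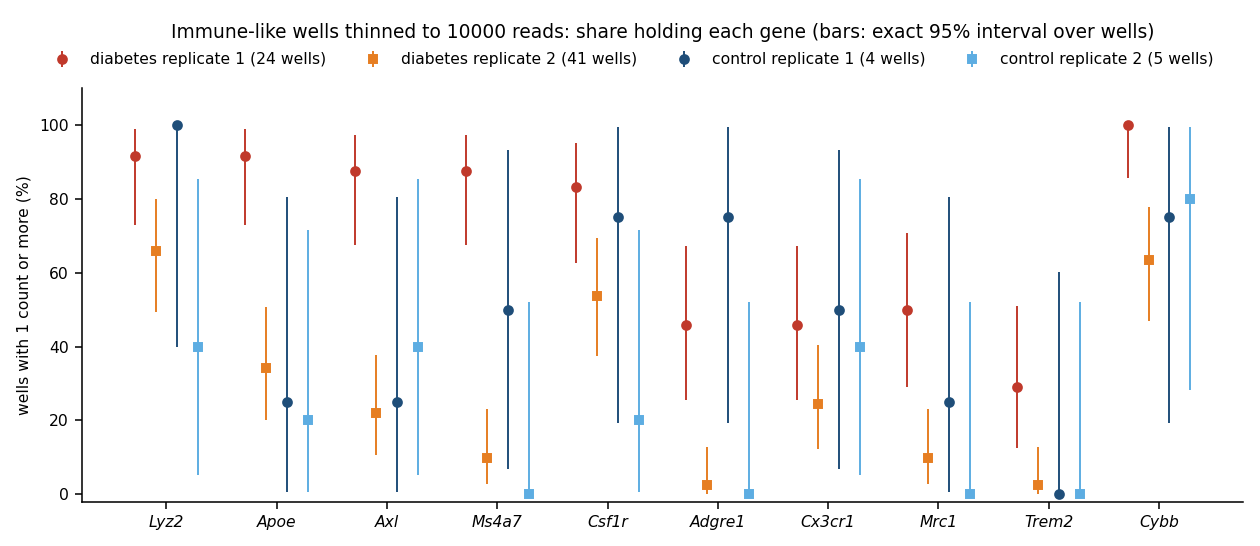
Share of immune-like wells, in percent, with at least 1 count of each gene after thinning to 10000 reads, for the 4 pools, with exact 95% intervals over wells that cover counting error only. Diabetes replicate 1 lies above diabetes replicate 2 for all 10 genes, and the intervals of the controls, with 4 and 5 wells, are wide.

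The number of the 10 genes held by a well after thinning tells the same pools apart. Immune-like wells held a median of 7.5 and 3 genes in diabetes replicates 1 and 2, and 4 and 2 in control replicates 1 and 2. At least 4 genes were held by 24 of 24 and 12 of 41 wells in diabetes replicates 1 and 2, and by 3 of 4 and 1 of 5 in control replicates 1 and 2. A finer clustering gave 2 immune-like groups. The first, of 41 wells, held a median of 8 and 4 genes in diabetes replicates 1 and 2, and 4 and 3 in the controls. The second, of 40 wells with 28 in diabetes replicate 2, held a median of 5 and 2 genes in diabetes replicates 1 and 2. In its wells of diabetes replicate 2 the immunoglobulin gene Igha had 103706 CPM and Lyz2 197 CPM, against 54.6 CPM of Igha and 5485 CPM of Lyz2 in the first group of the same pool. Igha was found in 18 of those 28 wells without thinning and in 13 of them after it.

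Over the 74 thinned immune-like wells of all pools, the genes whose counts moved together most were Axl and Ms4a7 (Spearman rho 0.688), Apoe and Ms4a7 (0.641) and Apoe and Axl (0.601). Csf1r and Trem2 were the least alike (0.0352). These correlations are a description, since the wells share 4 pools and 24 of them come from diabetes replicate 1.

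All single-cell wells with at least 10000 reads, whatever their cluster, were then scored for the 10 genes. At least 4 were held by 31 of 157 wells in diabetes replicate 1 (19.7%, exact interval 13.8 to 26.8%) and 29 of 238 in diabetes replicate 2 (12.2%, 8.31 to 17.03%). In control replicate 1 they were held by 5 of 146 wells (3.42%, 1.12 to 7.81%) and in control replicate 2 by 4 of 218 (1.83%, 0.502 to 4.63%). Both diabetes shares were above both control shares, but 2 pools against 2 allow no exact p under 0.333, and none is given. Wells imaged empty did the same. There at least 4 genes were held by 5 of 14 (35.7%) and 24 of 92 wells (26.1%) in diabetes replicates 1 and 2, and by 1 of 17 (5.88%) and 7 of 105 (6.67%) in control replicates 1 and 2. After thinning the share in empty wells was above that in single-cell wells in every pool, although the exact intervals overlapped in 3 of the 4 pools and thinning left only 14 of 184 and 17 of 195 empty wells in diabetes replicate 1 and control replicate 1. Without thinning the order turned in those pools, with 26.6% of single-cell and 22.8% of empty wells in diabetes replicate 1, and 3.17% of single-cell and 2.05% of empty wells in control replicate 1. Of the single-cell wells that held at least 4, 24 of 31 and 12 of 29 were kept and immune-like in diabetes replicates 1 and 2, and 3 of 5 and 1 of 4 in control replicates 1 and 2.

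**Figure D3:**
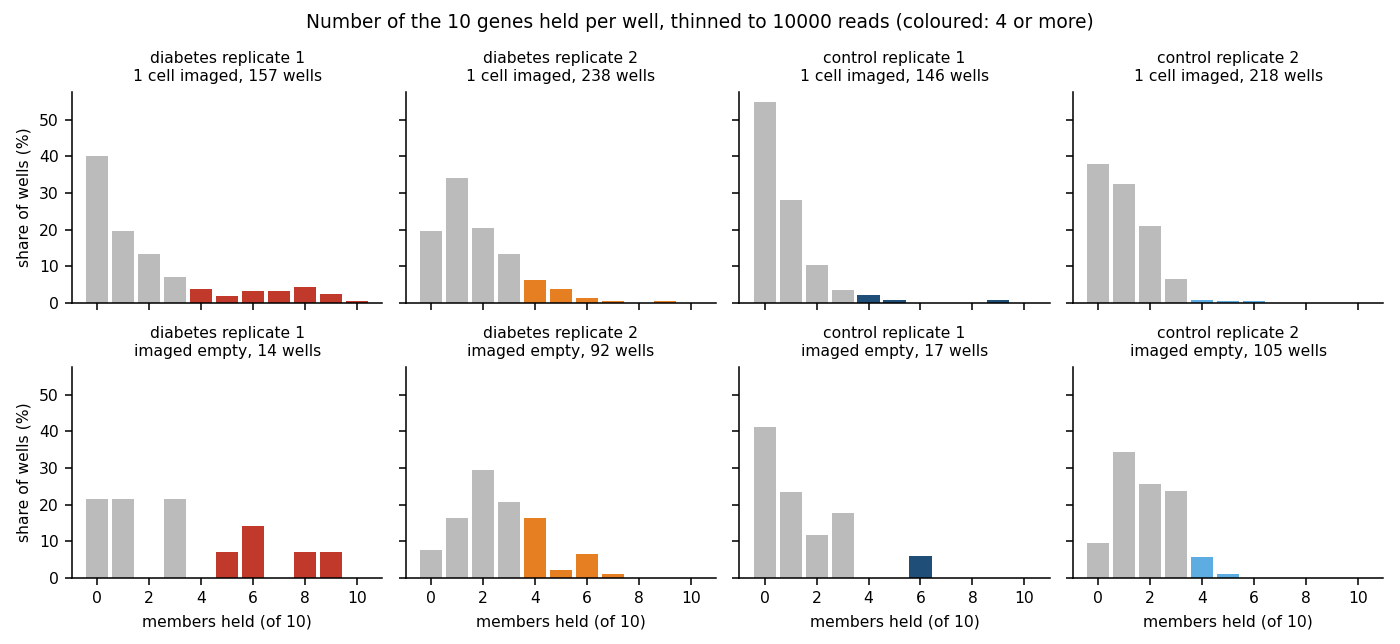
Share of wells, in percent, by the number of the 10 genes held after thinning to 10000 reads, for wells imaged with 1 cell (top) and imaged empty (bottom) in the 4 pools, with 4 or more genes in colour. The diabetes pools have longer upper tails than the control pools in both rows, with 19.7% and 12.2% of single-cell wells at 4 or more in diabetes, against 3.42% and 1.83% in control.

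Wells imaged empty held all 10 genes in both diabetes pools and 9 in each control pool. They were shallow in experiment 1, with median reads of 2397 in diabetes replicate 1 and 2212 in control replicate 1, and deeper in experiment 2, with 32994 in diabetes replicate 2 and 33610 in control replicate 2. Lyz2 had 1067 and 493 CPM in the empty wells of diabetes replicates 1 and 2, and 94.6 and 11.2 CPM in those of control replicates 1 and 2. Cybb had 328 and 113 CPM in the diabetes replicates, and 18.96 and 6.58 CPM in the control replicates. In empty wells 7 of the 10 genes (Lyz2, Apoe, Ms4a7, Csf1r, Cx3cr1, Trem2 and Cybb) had both diabetes values above both control values, where 17.2% of all genes with a mean of 1 CPM or more did. None of the 10 had both below, where 14.7% of all genes did. The same 7 genes had both diabetes values above both control values in kept wells, as given further on. Trem2 had 17.4 and 0.426 CPM in the empty wells of the diabetes replicates, and 0 and 0.226 CPM in those of the control replicates. Cx3cr1 had 63.7 and 4.47 CPM in the former, and 3.97 and 2.49 CPM in the latter. Both separations were narrow, and that of Trem2 rests on values near 0.

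Kept single-cell wells were set against empty wells of the same pool in 1 fit with the pool as a block. Of 12509 genes tested, 1 was called higher in kept wells (0.00799%) and 27 lower (0.216%), or 0.224% in all. None of the 9 members tested was called by edgeR's quasi-likelihood test or by DESeq2, and none had an unadjusted p under 0.05, a level reached by 5.11% of all genes. Lyz2 had the smallest p of the 9, at a log2 fold change of kept over empty wells of 0.43 (SE 0.20, adjusted p = 0.889). The median over the 9 was 0.26, against 0.03 over all genes. Immune-like wells alone had more Lyz2 than empty wells in every pool, at 7.82 and 5.47 times in diabetes replicates 1 and 2, and 73.4 and 69.2 times in control replicates 1 and 2. For Apoe the ratio was 7.57 and 0.92 in diabetes replicates 1 and 2, and 15.5 and 0.09 in control replicates 1 and 2. For Axl it was 5.24 and 0.84 in diabetes replicates 1 and 2, and 1.13 and 0.10 in control replicates 1 and 2. Both genes were thus above empty wells in experiment 1 and below them in experiment 2.

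Endothelial-like wells (76 and 98 in diabetes replicates 1 and 2, and 50 and 85 in control replicates 1 and 2) should lack most of these genes. Lyz2 had 43.4 and 102 CPM in diabetes replicates 1 and 2, and 1.67 and 1.67 CPM in control replicates 1 and 2. After thinning it was found in 19 of 70 (27.1%, exact interval 17.2 to 39.1%) and 13 of 98 wells (13.3%, 7.26 to 21.6%) of the diabetes replicates, and in 0 of 42 (up to 8.41%) and 1 of 85 (1.18%, 0.0298 to 6.38%) of the control replicates. Cybb was rarer, in 1 of 70 and 2 of 98 wells of the diabetes replicates and 0 of 42 and 1 of 85 of the control replicates. In all, 5 genes (Lyz2, Ms4a7, Csf1r, Cx3cr1 and Cybb) had both diabetes values above both control values, where 17% of all genes did. Of these, Cx3cr1 did not exceed 1.75 CPM and Cybb 4.09 CPM in any endothelial-like sum.

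In the endothelial-like fit 12695 genes were tested and edgeR called 0 (0.0%), with 537 (4.23%) at an unadjusted p under 0.05, while DESeq2 called 57 higher and 31 lower. Lyz2 stood at log2 5.45 (SE 0.91, adjusted p = 0.999) in edgeR's quasi-likelihood test, and it was called by DESeq2 (adjusted p = 2.65e-06) and by edgeR without diabetes replicate 1 (adjusted p = 0.00687). Ms4a7 had 6.61 (SE 3.27, adjusted p = 0.999). The 14 immune markers summed to 473 and 201 CPM in the endothelial-like wells of diabetes replicates 1 and 2, against 113 and 93.4 CPM in those of control replicates 1 and 2. The part of free RNA in the Lyz2 difference was not tested.

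Over all kept wells the 10 genes show how much of their RNA each pool held, where more cells of a type and more RNA per cell cannot be told apart. Lyz2 had 2543 and 519 CPM in diabetes replicates 1 and 2, and 212 and 17.4 CPM in control replicates 1 and 2. Csf1r had 254 and 117 CPM in the diabetes replicates, and 45.7 and 6.12 CPM in the control replicates. Cybb had 401 and 119 CPM in the diabetes replicates, and 25.9 and 22.6 CPM in the control replicates. In these 3 genes the conditions did not overlap, nor in Apoe, Ms4a7, Cx3cr1 and Trem2, which makes 7 of 10, where 15.4% of all genes with a mean of 1 CPM or more had both diabetes values above. Cx3cr1 was separated only narrowly, at 62.6 and 12.2 CPM in the diabetes replicates, and 10.1 and 11.6 CPM in the control replicates. Trem2 had 28.6 and 0.982 CPM in the diabetes replicates, and 0 and 0.0207 CPM in the control replicates. Mrc1 ran the other way, with 54.9 and 18.3 CPM in the diabetes replicates, and 105 and 93.0 CPM in the control replicates, as did 18% of all genes. Axl overlapped, with 557 and 336 CPM in the diabetes replicates, and 278 and 524 CPM in the control replicates.

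In the fit over all kept wells, 15330 genes were tested and 12 were called (0.0783%), 11 higher (0.0718%) and 1 lower (0.00652%). Of the 10 genes, all were tested and only Lyz2 was called, at log2 4.30 (SE 0.43, adjusted p = 0.0434). Lyz2 was not called when any 1 pool was left out, with values from 2.41 to 6.34, nor with no replicate block (3.79, adjusted p = 0.735). Apoe had 2.77 (SE 0.33, adjusted p = 0.0882), Cybb 3.22 (SE 0.47, adjusted p = 0.130) and Csf1r 3.43 (SE 0.55, adjusted p = 0.156). In all, 8 of the 10 had an unadjusted p under 0.05, a level reached by 7.35% of all genes, and 7 of these 8 were positive. The median over the 10 was 3.33, against 0.05 over all genes. Ms4a7 had 6.86 (SE 1.74, adjusted p = 0.536), Trem2 7.10 (SE 2.02, adjusted p = 0.509) and Adgre1 3.72 (SE 1.41, adjusted p = 0.673), each with a control pool at or near 0 counts, so that the size of the fold change depends on the prior count. The Adgre1 value turned to -2.18 without diabetes replicate 1, in a fit with no block that set diabetes replicate 2 against the control pools of both experiments. Within experiments its diabetes minus control difference on the log2(CPM + 1) scale was 1.85 in experiment 1 and 1.49 in experiment 2. Mrc1 was the only negative one, at -1.58 (SE 0.48, adjusted p = 0.549). Immune-like wells made up 28 of 128 and 41 of 188 kept wells in diabetes replicates 1 and 2, and 5 of 120 and 5 of 203 in control replicates 1 and 2. Their part in these differences was not tested.

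Mesangial-like wells numbered 5 and 20 in diabetes replicates 1 and 2, and 29 and 65 in control replicates 1 and 2, and a fit on them was added after the data had been seen. Their immune marker sum was 403 and 119 CPM in diabetes replicates 1 and 2, and 294 and 132 CPM in control replicates 1 and 2, and Trem2, Cx3cr1, Adgre1 and Ms4a7 had between 0 and 5.90 CPM there. The part of immune RNA in the values below was not tested. Axl, by contrast, had 1305 and 1228 CPM in diabetes replicates 1 and 2, and 714 and 1350 CPM in control replicates 1 and 2. The conditions overlapped. After thinning, Axl was found in 3 of 3 and 16 of 20 wells of the diabetes replicates, and in 18 of 27 and 53 of 65 wells of the control replicates. In edgeR's test it stood at log2 0.37 (SE 0.43, adjusted p = 1.00).

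Mrc1 had 11.04 and 43.8 CPM in the mesangial-like wells of diabetes replicates 1 and 2, and 321 and 290 CPM in those of control replicates 1 and 2. Both diabetes values were lower than both control values, as were those of 23.6% of all genes in these wells. None of the 10 had both diabetes values above, where 8.89% of all genes did. Mrc1 was found after thinning in 0 of 3 and 5 of 20 wells of the diabetes replicates, and in 10 of 27 (37.0%, exact interval 19.4 to 57.6%) and 27 of 65 wells (41.5%, 29.4 to 54.4%) of the control replicates. The fit called 14 of 10030 genes (0.14%), 10 higher (0.0997%) and 4 lower (0.0399%), and none of the 5 members tested. Of these 5, Mrc1 and Apoe had an unadjusted p under 0.05, as did 3.07% of all genes, and 4 were positive, against 38.6% of all genes. Mrc1 stood at log2 -3.66 (SE 1.02, adjusted p = 0.147), against a median of -0.47 over all genes. It was called when every well with 1 cell imaged was used (log2 -3.85, adjusted p = 0.0291).

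Apoe had 215 and 3001 CPM in the mesangial-like wells of diabetes replicates 1 and 2, and 265 and 490 CPM in those of control replicates 1 and 2. Only diabetes replicate 2 stood out, where all 20 wells held Apoe after thinning, with a median of 23 counts. The median well had 1 count in diabetes replicate 1, and 0 and 1 in control replicates 1 and 2. In edgeR's test Apoe stood at log2 1.19 (SE 0.50, adjusted p = 1.00), and it was 3.14 and called without diabetes replicate 1 (adjusted p = 0.0201) and -0.96 without diabetes replicate 2 (adjusted p = 0.491). The empty wells of diabetes replicate 2, at 1856 CPM, were also the highest of the 4 pools in Apoe, and the part of free RNA in that value was not tested.

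**Figure D4:**
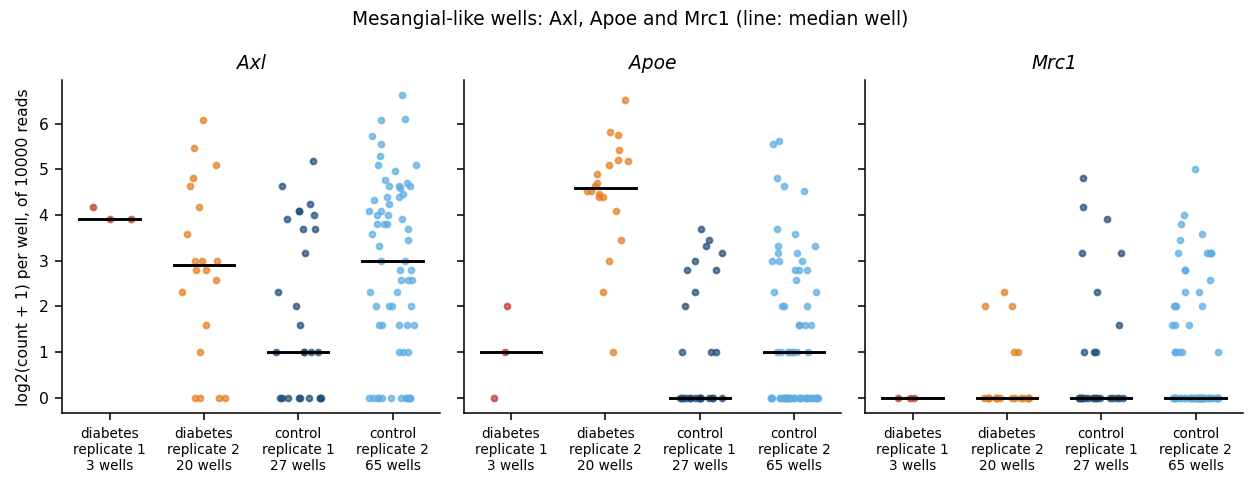
Counts of Axl, Apoe and Mrc1 per mesangial-like well after thinning to 10000 reads, as log2(count + 1) on the vertical axis, with 1 point per well, the median well as a line and the 4 pools side by side (diabetes left). Axl is found in most wells of each pool, Apoe has a median of 23 counts in diabetes replicate 2 only, and Mrc1 counts above 4 occur in control wells only.

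The ligands of the receptors had higher levels in other classes than in most immune-like sums. Csf1, the main ligand of Csf1r, had 362 and 543 CPM in the endothelial-like wells of diabetes replicates 1 and 2, and 286 and 342 CPM in those of control replicates 1 and 2, against at most 121 CPM in any immune-like sum. Il34, its other ligand, was found in the mesangial-like wells of experiment 2, at 84.7 CPM in diabetes replicate 2 and 21.2 CPM in control replicate 2, and had 0 counts in those of experiment 1. Cx3cl1, the ligand of Cx3cr1, had 159 and 236 CPM in endothelial-like wells of the diabetes replicates, and 125 and 304 CPM in those of the control replicates. Gas6, which bridges Axl to dying cells, ranged over 60.1 to 144 CPM in endothelial-like sums. Pros1, a related bridging protein that binds other TAM receptors, had 1166 CPM in the podocyte-like wells of diabetes replicate 2, and 93.0 and 367 CPM in those of control replicates 1 and 2. None of the 5 ligands was called in any fit between conditions, and in the fit over all kept wells their median log2 fold change was 0.44, against 0.05 over all genes. Mertk, a TAM relative of Axl, had 14.2 to 80.5 CPM in immune-like sums, but 1465 CPM in the podocyte-like wells of diabetes replicate 2, and 955 and 832 CPM in those of control replicates 1 and 2.

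Partners of the members were counted from lists of known pathway genes. Of the 6 oxidase partners of Cybb, all were tested in immune-like wells, none was called and the median was 0.85, against 1.02 over all genes. Rac2, a GTPase that activates the oxidase, had 518 and 580 CPM in diabetes replicates 1 and 2, and 321 and 807 CPM in control replicates 1 and 2. Cyba, which forms the membrane core with Cybb, had 759 and 308 CPM in the diabetes replicates, and 456 and 183 CPM in the control replicates. Of 5 Trem2 adaptors and signalling genes, none was called and the median was -0.13. Tyrobp, the adaptor that carries the Trem2 signal, had 2339 and 1249 CPM in the diabetes replicates, and 2954 and 1817 CPM in the control replicates, so it was present in the control wells in which Trem2 was at 0. Of 10 Apoe receptors and lipid handling genes, 9 were tested and none was called, with a median of 1.18. Lpl, which releases fatty acids from lipoproteins, had 4193 and 884 CPM in the diabetes replicates, and 1167 and 741 CPM in the control replicates.

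Further macrophage genes gave the same picture of few calls. Of 20 other macrophage genes, 17 were tested in immune-like wells and none was called, with a median of 2.35. C1qb, a complement subunit made by tissue macrophages, had 3685 and 514 CPM in diabetes replicates 1 and 2, and 2563 and 0 CPM in control replicates 1 and 2. Cd68, a lysosomal protein of macrophages, had 1183 and 383 CPM in the diabetes replicates, and 214 and 233 CPM in the control replicates. Of 12 inflammatory genes, 8 were tested and none was called. Their median of -1.47 in immune-like wells was opposite in sign to that of the members there, unlike in the other fits given below. Ccl4, a chemokine, had 490 and 565 CPM in the diabetes replicates, and 2723 and 1884 CPM in the control replicates, at log2 -1.97 (SE 0.77, adjusted p = 0.989, edgeR). Of 13 genes of alternative activation, 4 were tested and none was called (median 2.58), and of 10 genes of lipid-associated macrophages, 9 were tested and none was called (median 1.30). In the fit over all kept wells, 17 other macrophage genes were tested and none was called, with a median of 3.42, while Ctss, a lysosomal protease among the 14 immune markers, was called (log2 4.29, adjusted p = 0.0160). Of 10 inflammatory genes tested there, 9 were positive, with a median of 1.59, and Ccl4 stood at log2 1.10 (SE 0.36). The inflammatory median was 3.41 over 6 genes tested in endothelial-like wells and 1.93 over 3 in mesangial-like wells. None of the inflammatory genes was called in these fits.

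Over the 16 class-by-pool sums of at least 5 wells, the genes most like the mean of the 10 were Lyz1 (Pearson r 0.960), C5ar1 (0.943), AB124611 (0.936), Wfdc17 (0.936), Ccl9 (0.934), Rab7b (0.933), Cadm1 (0.933) and Sirpb1c (0.932), among 9374 genes with a mean of 10 CPM or more. The sums share 4 pools and their depths, and r is given as a description. Lyz2 is 1 of the 10, and its reads cannot be fully separated from those of Lyz1. The part of such reads in the Lyz1 values was not tested. Csf1r was most like Laptm5 (0.987) and Csf2ra (0.985), Cx3cr1 most like Ccl3 (0.99) and Nlrp3 (0.988), Adgre1 most like Fcgr1 (0.989) and Mmp13 (0.985), and Cybb most like Cd300ld (0.985) and Cd300c2 (0.982). Lyz2 was most like Lyz1 (0.974) and Laptm5 (0.959), and Ms4a7 most like Pf4 (0.959) and Ccl9 (0.958). Axl, Mrc1 and Apoe, whose levels overlapped between classes, had other partners. Axl was most like Cd63 (0.896) and Calm3 (0.791), Mrc1 most like Cdk14 (0.919) and Mttp (0.839), and Apoe most like Pdlim4 (0.907) and Trf (0.871). Trem2, with few counts, was most like Lair1 (0.872) and Atp8b4 (0.871).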

How the data were processed

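Wells were taken as labelled by experiment, condition and number of cells imaged. The authors deposited expected counts per gene and well, with fractions and without molecular identifiers, so intervals cover counting error only. The submitters' processing notes name featureCounts 1.5.1, BWA 0.7.17-r1188, STAR 2.4.2a and cutadapt 1.11, with mm10 as the build, and no source used here says how reads with several matches were divided. Identifiers were matched to GENCODE M21 symbols (45229 of 45792). Counts were summed over wells of a pool and class, rounded, and tested with edgeR 4.0.16 (robust quasi-likelihood, TMM, filterByExpr, R 4.3.3), with DESeq2 1.42.0 as an alternative. Each SE given was worked back from the test, as the absolute log2 fold change divided by the square root of the quasi-likelihood F. Wells were clustered with scanpy 1.11.5 (2000 variable genes without the members, 15 components, 15 neighbours, Leiden resolution 0.8). A cluster was named where its best marker list had a median log2 fold of at least 0.4 and at least 3 markers detected in 25% of its wells, limits set with the data at hand. No doublet caller was run, since wells were imaged. Genes named are the 10 members, the list genes of largest mean CPM in a class and the most like genes by Pearson r, and a member's fold change is given in the text mainly where its unadjusted p was under 0.1. Thinning drew 10000 reads per well, which leaves out shallower wells. The replicate number marks a shared chip per the labels, and deviations of same-numbered pools correlated at r = 0.236 over 9650 genes. Each pool mixed 3 mice, so p-values concern pools and not mice. In the main immune-like and mesangial-like edgeR fits the median gene was given only the spread shared across genes, with no weight on its own. The members, lists and limits were chosen with earlier results of these data known. The edgeR step was tested on simulated data, and the DESeq2 step was not. That simulation gave every gene the same spread and held no difference between experiments, so it differs from the pools here.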

Additional observations from a re-analysis of the deposited data

Results flagged for a closer look

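Cx3cr1 differed in direction between cell classes. Its diabetes minus control difference on the log2(CPM + 1) scale was -0.67 in experiment 1 and -2.95 in experiment 2 in immune-like wells, and 0.82 in experiment 1 and 0.38 in experiment 2 in endothelial-like wells. The difference between the classes was not tested, and the endothelial-like values rest on 6 and 13 counts in diabetes replicates 1 and 2, and on 1 and 5 counts in control replicates 1 and 2.

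Wells imaged with 2 cells, which no comparison used, also held the genes. At least 4 were held, after thinning, by 8 of 22 such wells in diabetes replicate 1 (36.4%) and 3 of 24 in diabetes replicate 2 (12.5%), above 1 of 12 (8.33%) and 1 of 39 (2.56%) in control replicates 1 and 2.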

How the results depend on the processing

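The count of members called depended on the setting. In immune-like wells it was 1, 0 with RLE scaling, 0 with DESeq2, 0 with no replicate block, and 0 to 4 when 1 pool was left out, the 4 (Apoe, Axl, Ms4a7 and Adgre1) without control replicate 1. Over all kept wells it was 1, 0 with RLE scaling, 0 with no replicate block, 0 with every well with 1 cell imaged, 0 with mitochondrial reads at most 15%, 3 with no filter on low counts, 5 with thinned counts, 6 with DESeq2, and 0 to 3 when 1 pool was left out, the 3 (Apoe, Trem2 and Cybb) without diabetes replicate 2. In endothelial-like wells it was 0, 1 with DESeq2 and 0 to 1 when 1 pool was left out. In mesangial-like wells it was 0, 1 with every well with 1 cell imaged and 0 to 1 when 1 pool was left out. For kept against empty wells it was 0 under all 11 alternatives. The cause of these changes was not tested. Where a pool was left out of a fit between conditions, fewer samples remained and the block was dropped as well. The parts of the pool, the sample number and the block cannot be told apart there. The whole count of genes called also moved, as higher and lower. In immune-like wells it was 3 and 1, but 13 and 1 with no filter, 6 and 3 with DESeq2, 1 and 1 with RLE scaling and 0 and 0 without the block. It was 175 and 275 without control replicate 1, 2 and 14 without control replicate 2, 11 and 0 without diabetes replicate 1, and 0 and 0 without diabetes replicate 2. Over all kept wells it was 11 and 1, but 34 and 2 with no filter, 369 and 218 with DESeq2, 0 and 1 without the block, 104 and 53 with thinned counts and 0 and 0 with every single-cell well or mitochondrial reads at most 15%. It was 39 and 4 without control replicate 1, 7 and 2 without control replicate 2, 75 and 17 without diabetes replicate 1, and 83 and 87 without diabetes replicate 2. In endothelial-like wells it was 0 and 0, but 57 and 31 with DESeq2, at most 4 and 1 under its other settings on all 4 pools, 1 and 1 without control replicate 1, 3 and 5 without control replicate 2, 16 and 6 without diabetes replicate 1, and 8 and 3 without diabetes replicate 2. In mesangial-like wells it was 10 and 4, but 0 and 0 without the block or with mitochondrial reads at most 15%, 0 and 1 without control replicate 1, 5 and 0 without control replicate 2, 6 and 3 without diabetes replicate 1, and 15 and 1 without diabetes replicate 2. For kept against empty wells it was 1 and 27, but 3 and 40 with no filter, 2 and 86 with DESeq2, 0 and 1 with thinned counts and 0 and 0 without the block or with every single-cell well. It was 0 and 1 without control replicate 1, 0 and 4 without control replicate 2, 0 and 0 without diabetes replicate 1, and 0 and 32 without diabetes replicate 2. The median log2 value of all genes in immune-like wells was 1.02 with TMM and 0.75 with RLE scaling. Apoe in immune-like wells ran from 1.59 to 6.99 and was called under 4 of 10 alternatives, and Lyz2 over all kept wells was called under 3 of 11. With 1 pool left out and no block, Adgre1 over all kept wells ran from -2.18 to 13.01 and Apoe in mesangial-like wells from -0.96 to 3.14.

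The share of wells that held at least 4 members moved most in the deeper experiment 2. In single-cell wells it was 42.9% in diabetes and 14.7% in control replicate 2 without thinning, 25.6% and 8.26% for at least 3 members, and 4.62% in diabetes replicate 2 where 2 counts were needed. In empty wells it was 53.1% in diabetes and 22.5% in control replicate 2 without thinning, 46.7% and 30.5% for at least 3 members, and 9.78% and 0.952% where 2 counts were needed. Immune-like wells could not be fitted with every well with 1 cell imaged, with mitochondrial reads at most 15% or with thinned counts, nor mesangial-like wells with thinned counts, as a pool then had under 5 wells.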
